A study of Ovis aries with 40 samples.

Results

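The genes described here are 10 transcription factors of the early lung epithelium. SOX9, ID2, ETV4, ETV5 and MYCN mark or act in the progenitor cells at the tips of the branching airways. NKX2-1, FOXA1, FOXA2, GATA6 and FOXP2 are endoderm factors that set up and maintain lung epithelium. The members were taken by gene symbol from a list fixed with earlier results of these data known, and are 10 of 24478 genes in the deposited count tables. RNA-seq libraries were made from proximal and distal lung of American Romney sheep (Ovis aries). The animals were wild type (WT) or CFTR-/- (here CF), with a frameshift mutation in exon 2 of the chloride channel gene CFTR. Lung was taken on gestational days 65, 80, 100 and 120 and at term (day 147 in the labels). Each of the 20 conditions had 2 libraries, 40 in all.

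The WT animals were bred naturally and the WT term animals were born naturally. The CF animals came from somatic cell nuclear transfer with a male fetal fibroblast line in which CFTR exon 2 had been targeted, so they are cloned animals. Genotype and the way the animals were made therefore cannot be told apart. The 2 WT day 100 replicates of each region carry the same sample label, so p-values over them may measure only technical spread. WT day 65 replicate 2 and CF day 100 replicate 2 of both regions also carry 1 label between them, although they differ in genotype and age, and this clash could not be settled from the labels.

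In the branching lung, FGF10 from the mesenchyme signals through FGFR2 in the tip epithelium, and ETV4 and ETV5 are targets of that signal. SOX9-positive tip cells divide, and those left behind become airway cells early and alveolar cells later, as branching ends. NKX2-1 stays on in the distal lung, where it activates surfactant genes, and FOXA1, FOXA2 and GATA6 open and drive epithelial genes beside it. SOX9 is also the main transcription factor of cartilage, which surrounds the airways.

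On the sheep assembly Oar_v4.0 (oviAri4) used in the files, SOX9 lies on chromosome 11 (57720431 to 57725439, minus strand) and ETV4 on the same chromosome (42805981 to 42820576, minus). ID2 (17998087 to 18000524, plus) and MYCN (24078057 to 24085305, plus) lie on chromosome 3, and ETV5 on chromosome 1 (199188769 to 199249358, plus). NKX2-1 (45530212 to 45534128, minus) and FOXA1 (46595265 to 46603036, minus) share chromosome 18. FOXA2 is on chromosome 13 (40588824 to 40597768, minus), GATA6 on chromosome 23 (34417083 to 34515862, minus) and FOXP2 on chromosome 4 (53726179 to 54051951, minus). Counts are of reads over annotated exons. No exon of another annotated gene overlapped an exon of a member.

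Total counts were 24670355 to 43700012 in the 16 WT libraries before term and 85773994 to 103139483 in the 16 CF libraries before term. They were 115937437 to 126749480 in the 4 WT term libraries and 117316905 to 119451372 in the 4 CF term libraries. Depth therefore moved with genotype before term and, in WT lung, also between the earlier days and term. Counts were thinned to equal depth only for the comparisons of CF with WT, so the WT changes to term were not tested at equal depth. Every member was counted in every library, the lowest value being 66 counts of ETV4, and all 10 passed the filter on low counts in each comparison. The source is labelled epithelial tissue. EPCAM and CDH1, which mark epithelium, ran from 90.2 to 286 and from 66.6 to 450 CPM (counts scaled to the library total and composition), and the mesenchymal COL1A1 from 498 to 8187 CPM, so the libraries hold RNA of several tissues. The thyroid gene TG was at or near 0 (up to 0.83 CPM). CFTR itself differed between CF and WT by -0.44 to -0.86 on the log2 scale on the days before term, without passing (adjusted p = 0.15 to 0.56 over 8 tests). Over the mean of these days the difference was -0.71 in proximal (adjusted p = 0.011) and -0.53 in distal lung (adjusted p = 0.0066). At term it was at 3.65 to 5.14 CPM in CF against 9.58 to 14.8 CPM in WT at term, without overlap (log2 fold change -1.43 in both regions, adjusted p = 0.028 in proximal and 0.0033 in distal lung, edgeR quasi-likelihood test). None of these met the limit of 0.001 used below. In bulk tissue, fewer cells of a type and less RNA per cell cannot be told apart.

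Between day 65 and term, the tip factors SOX9, ETV4, ETV5 and MYCN and the endoderm factor FOXP2 fell in WT lung, and no change of FOXA1, FOXA2 or GATA6 passed. A change passed the test when its adjusted p (Benjamini-Hochberg over all genes) did not exceed 0.001 and its log2 fold change was 0.58 or larger in size. In WT proximal lung 5 of 10 members were lower at term, beside 6.56% of all genes tested, and ID2 was higher, beside 8.15%. In WT distal lung the same 5 members were lower, beside 5.25%. In CF distal lung SOX9, ETV4 and FOXP2 were lower, 3 of 10 beside 2.28%. In CF proximal lung 0 of 10 passed, beside 0.0762% of all genes. There, 7 members had an unadjusted p under 0.05 (28.8% of genes did), 3 passed at an adjusted p of 0.05 (11.6% of genes), and DESeq2 called 3 (10.3% of genes). Whether the change differed between genotypes over this interval was not tested.

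**Figure D1:**
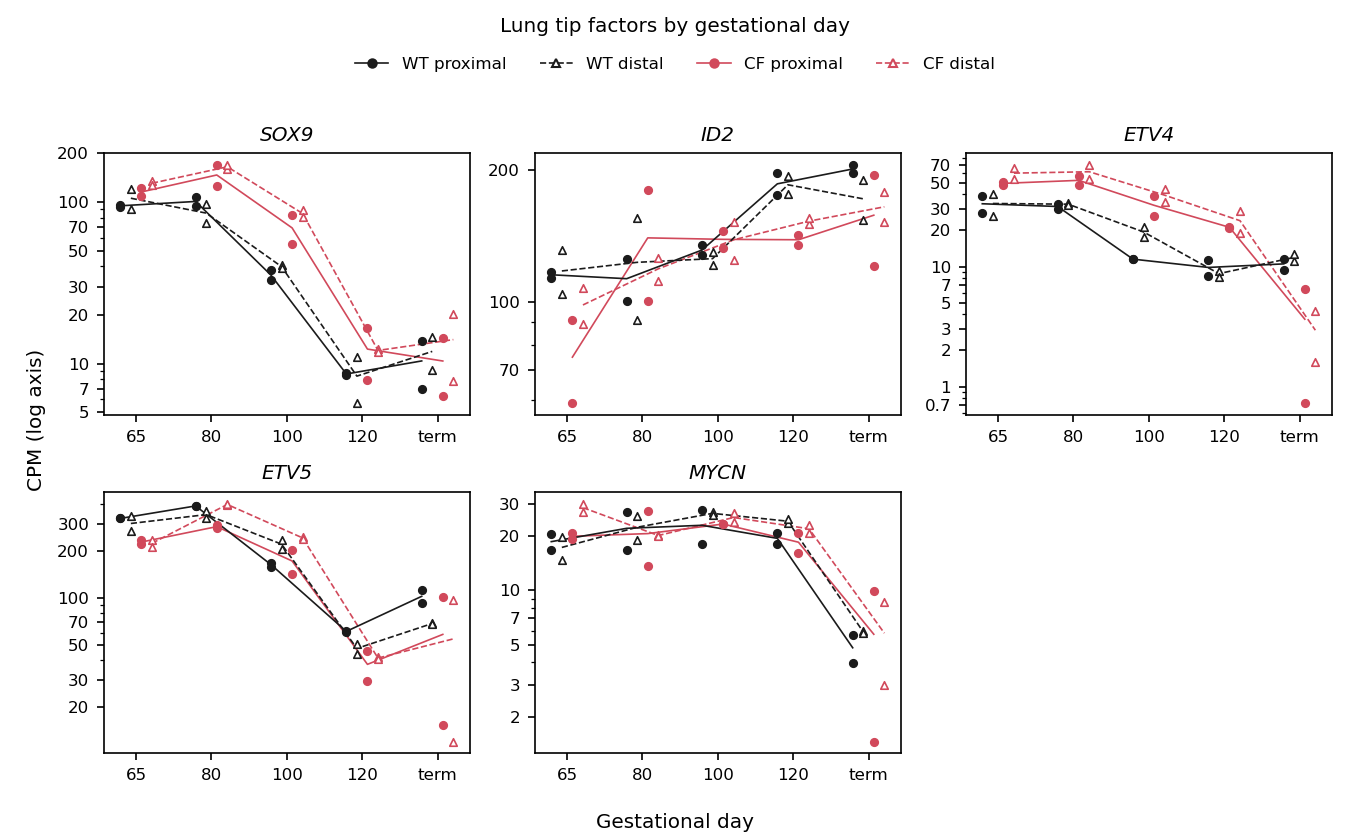
CPM (log axis) of the 5 tip factors against gestational day, with 1 symbol per library and lines through the means of 2 libraries, for WT (black) and CF (red), proximal (filled circles, solid lines) and distal lung (open triangles, dashed lines). SOX9 stayed at 32.7 CPM or more through day 100 and at 20.4 CPM or less from day 120. The 2 CF term replicates of ETV5 lie far apart, at 102 and 15.4 CPM in proximal lung.

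SOX9, which keeps tip cells from differentiating, had the largest fall of the members in WT lung on the log2 scale. In WT proximal lung it was at 96.1 and 93.3 CPM at day 65, 107 and 94.6 at day 80, 32.7 and 37.8 at day 100, 8.69 and 8.56 at day 120, and 7.01 and 13.8 at term. In WT distal lung the values were 89.9 and 121, 96.5 and 74.2, 40.6 and 39.0, 5.70 and 11, and 9.10 and 14.7 CPM. In both WT regions the first 2 days were highest, and day 100 lay between them and the last 2 time points. CF proximal lung gave 122 and 109, 169 and 125, 83.5 and 54.7, 7.95 and 16.7, and 6.27 and 14.5 CPM. CF distal lung gave 134 and 127, 161 and 169, 88.9 and 80.8, 12.3 and 11.8, and 7.76 and 20.4 CPM. The 24 libraries through day 100 and the 16 from day 120 on did not overlap, in either genotype or region. The log2 fold change from day 65 to term was -3.19 ± 0.28 (SE) in WT proximal (adjusted p = 3.7e-05), -3.17 ± 0.34 in WT distal (adjusted p = 0.00019), -3.46 ± 0.54 in CF proximal (adjusted p = 0.0071) and -3.19 ± 0.38 in CF distal lung (adjusted p = 0.00044). By day 120 the change from day 65 was already -3.46 in WT proximal and -3.65 in WT distal lung (adjusted p = 0.00010 and 0.00045), and these calls were lost in 2 and 8 of 10 fits without 1 library (adjusted p up to 0.0020 without WT proximal day 120 replicate 1 and 0.0043 without WT distal day 120 replicate 1). The WT distal call at term was lost in 1 of 10 fits without 1 library (WT distal day 65 replicate 2, adjusted p = 0.0011). The CF distal call was lost in 6 of 10, at worst without CF distal day 65 replicate 1 (adjusted p = 0.0027), with log2 fold changes from -4.04 to -2.66.

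Some cartilage genes moved over the same days as SOX9 and others did not. The cartilage collagen COL2A1 was at 249 to 459 CPM at days 65 and 80, 43.7 to 138 CPM at day 100, and 0.154 to 2.20 CPM from day 120 on, with 1 exception. CF proximal day 120 replicate 2 held 72.1 CPM of COL2A1 against 0.98 CPM in replicate 1, and SOX9 was 16.7 against 7.95 CPM in the same libraries. From day 65 to term in WT distal lung, 4 of 13 cartilage genes fell, COL2A1 (log2 fold change -8.07), COL9A3 (-5.44), COL11A1 (-4.07) and SOX5 (-2.66), and MATN4 rose (3.61). SOX5 and MATN4 were named after their values were seen. Of the other 8 none passed, among them ACAN, the main cartilage proteoglycan, at 3.13 to 11.2 CPM at day 65 and 9.83 to 18.0 CPM at term in WT lung. The part of cartilage in the SOX9 values was not tested.

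ETV5, an ETS factor induced by FGF signalling, fell in WT lung after day 80. WT proximal lung held 324 and 324 CPM at day 65, 387 and 392 at day 80, 168 and 159 at day 100, 60.4 and 61.9 at day 120, and 92.8 and 112 at term. WT distal lung held 268 and 334, 359 and 327, 236 and 207, 51.0 and 44.0, and 69.5 and 67.9 CPM. Every WT library before day 120 was above every WT library from day 120 on. From day 80 to day 100 the log2 fold change was -1.27 in WT proximal (adjusted p = 0.0018) and -0.63 in WT distal lung (adjusted p = 0.094). The fall from day 100 to day 120 passed the test in WT proximal (log2 fold change -1.41 ± 0.12, adjusted p = 0.00098, with 0.0770% of genes called) and WT distal lung (-2.22 ± 0.15, adjusted p = 0.00058, with 0.0274% called). Counting the 2 WT day 100 libraries as 1 ended both calls (adjusted p = 0.017 and 0.012), and leaving out 1 library ended them in 8 and 6 of 10 fits (adjusted p up to 0.020 without WT proximal day 100 replicate 1 and 0.012 without WT distal day 100 replicate 1). From day 65 to term ETV5 fell by 1.67 on the log2 scale in WT proximal and by 2.16 in WT distal lung (adjusted p = 1.2e-05 and 2.1e-05), and both calls held with any 1 of the 10 libraries left out.

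In CF lung before term ETV5 was at 222 and 236, 282 and 292, 203 and 143, and 45.7 and 29.5 CPM in proximal and 237 and 212, 393 and 404, 246 and 240, and 41.9 and 40.6 CPM in distal lung from day 65 to day 120. The 4 CF libraries lay below the 4 WT libraries at day 65 and overlapped them on the other 3 days. At term the 2 CF replicates parted, at 102 and 15.4 CPM in proximal and 97.5 and 12 CPM in distal lung. In both regions replicate 1 was near the WT values and replicate 2 below them. The change from day 65 to term was -2.00 ± 0.70 in CF distal lung and did not pass (adjusted p = 0.055). It was -4.20 without CF distal term replicate 1 (adjusted p = 9.6e-05) and -1.17 without replicate 2 (adjusted p = 0.0048). Each of these fits leaves 1 term library, which is assumed to vary like the other groups, so the size of the change is not settled by these replicates. The 2 CF term replicates stood apart in other members too. In proximal lung FOXA1 was at 29.4 and 69.6 CPM and MYCN at 9.99 and 1.46 CPM, whereas NKX2-1 was at 152 and 179 CPM.

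ETV4, the paralog of ETV5, fell in WT lung and in CF distal lung and was the member that stood furthest apart between the genotypes. WT proximal lung held 28.2 and 38.5 CPM at day 65, 29.9 and 33.4 at day 80, 11.5 and 11.6 at day 100, 11.2 and 8.43 at day 120, and 9.38 and 11.7 at term. WT distal lung held 26.6 and 40.5, 33.9 and 32.3, 21.2 and 17.7, 9.25 and 8.22, and 11.2 and 12.7 CPM. In both WT regions days 65 and 80 were above every later library. CF proximal lung held 47.8 and 51.0, 47.8 and 56.8, 26.2 and 38.6, 21.5 and 21, and 6.56 and 0.728 CPM. CF distal lung held 53.5 and 66.7, 53.3 and 70.1, 34.3 and 44.5, 19.2 and 29.1, and 4.28 and 1.62 CPM. On each day before term all 4 CF libraries were above all 4 WT libraries, and at term all 4 CF libraries were below them. By the labels, 4 such libraries are proximal and distal lung of 2 animals, and those of WT day 100 carry 1 label. How many of all genes separated in this way was not counted. The change from day 65 to term was -1.67 ± 0.22 in WT proximal (adjusted p = 0.00034), -1.52 ± 0.21 in WT distal (adjusted p = 0.00068), -3.74 ± 0.84 in CF proximal (adjusted p = 0.027) and -4.32 ± 0.46 in CF distal lung (adjusted p = 0.00024). The WT distal call was lost in 9 of 10 fits that left out 1 library, at worst WT distal day 147 replicate 1 (adjusted p = 0.0036), and the WT proximal call in 3, at worst WT proximal day 147 replicate 1 (adjusted p = 0.0032). The CF distal call was lost in 2 of 10, at worst without CF distal day 65 replicate 2 (adjusted p = 0.0018), and its log2 fold change ran from -5.20 without CF distal day 147 replicate 1 to -3.78 without replicate 2.

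MYCN, which drives proliferation of distal epithelium, ran at one level to day 120 and was lower at term. In the 32 libraries before term it ran from 13.7 to 30.3 CPM with a median of 20.9. At term it was at 5.65 and 3.98 CPM in WT proximal, 5.97 and 5.82 in WT distal, 9.99 and 1.46 in CF proximal, and 8.61 and 3.0 in CF distal lung. The 8 term libraries lay below all 32 others. From day 120 to term the log2 fold change was -2.06 ± 0.20 in WT distal lung (adjusted p = 0.00057, with 1.15% of genes called), -2.02 ± 0.31 in WT proximal (adjusted p = 0.0023), -1.92 ± 0.41 in CF distal (adjusted p = 0.015) and -1.72 ± 0.76 in CF proximal lung (adjusted p = 0.34). From day 65 to term it fell by 1.96 on the log2 scale in WT proximal and by 1.59 in WT distal lung (adjusted p = 0.00090 and 0.00040), and these calls were lost in 6 and 7 of 10 fits without 1 library (adjusted p up to 0.0083 without WT proximal day 147 replicate 2 and 0.0026 without WT distal day 65 replicate 2). With 1 library left out the WT distal change from day 120 was lost in 7 of 10 fits, at worst without WT distal day 120 replicate 2 (adjusted p = 0.0066). It was also lost with the WT day 100 libraries counted as 1 (adjusted p = 0.0028).

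ID2, which blocks basic helix-loop-helix factors and marks tip cells in the mouse, went the other way. It was at 114 and 117 CPM in WT proximal lung at day 65 and 197 and 205 at term, and at 104 and 131 against 189 and 154 CPM in WT distal lung. CF proximal lung went from 91.0 and 59.0 to 121 and 195 CPM and CF distal lung from 89.2 and 108 to 152 and 178 CPM. In each of the 4 courses both term libraries were above both day 65 libraries. The change passed in WT proximal lung (log2 fold change 0.79 ± 0.13, adjusted p = 0.00099) and not in WT distal (0.51 ± 0.23, adjusted p = 0.11), CF proximal (1.08 ± 0.38, adjusted p = 0.10) or CF distal lung (0.77 ± 0.19, adjusted p = 0.017). The WT proximal call was lost in 8 of 10 fits with 1 library left out, at worst WT proximal day 65 replicate 1 (adjusted p = 0.0090). Its relatives ID1, ID3 and ID4 were at 0.93, 0.89 and 0.69 in WT distal lung (log2 fold change to term), and none of them passed (adjusted p = 0.0068, 0.0045 and 0.0015).

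**Figure D2:**
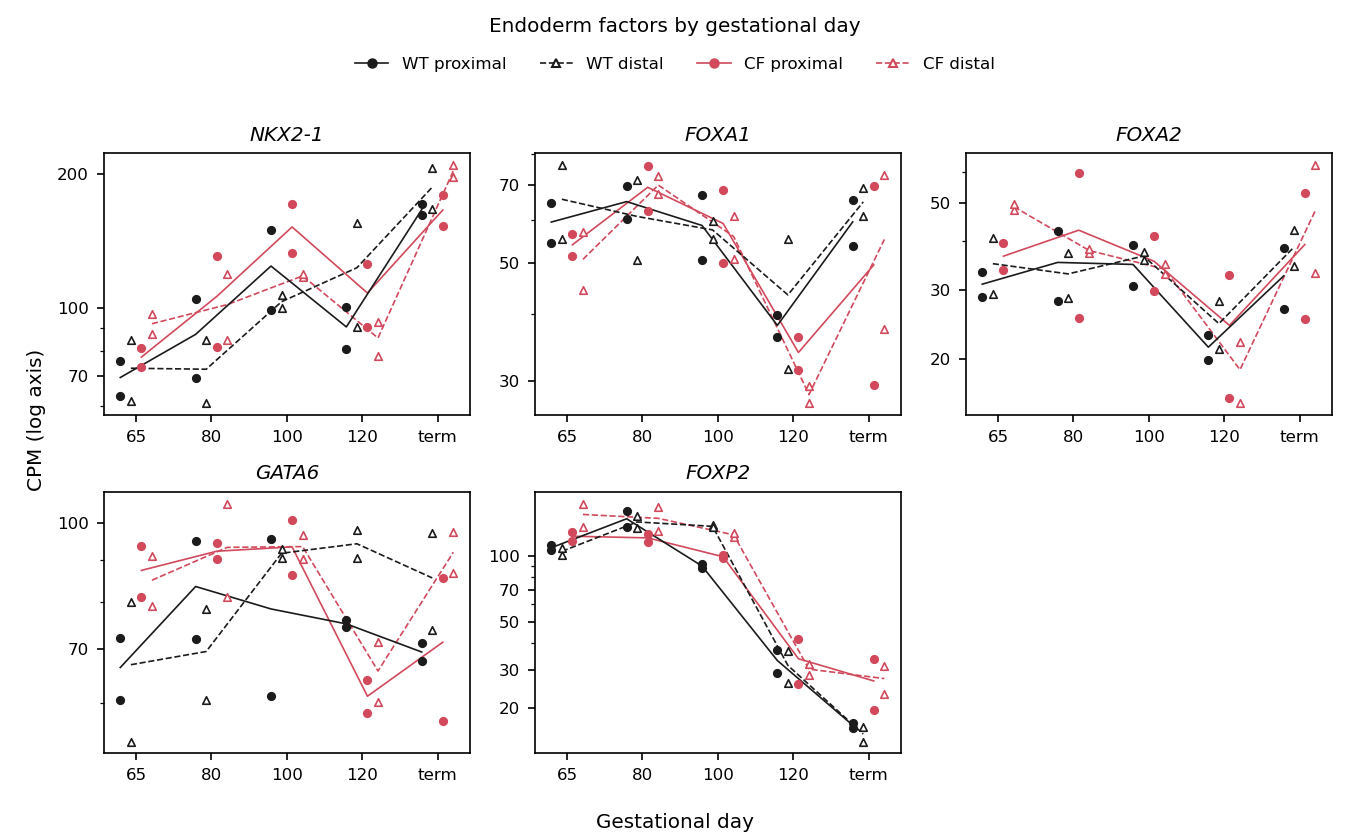
CPM (log axis) of the 5 endoderm factors against gestational day, drawn as for the tip factors. In all 4 courses NKX2-1 has its highest mean at term, and FOXA1 and FOXA2 have their lowest at day 120. FOXP2 drops from 87.9 CPM or more through day 100 to 41.5 CPM or less from day 120.

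NKX2-1, the earliest marker of lung endoderm and an activator of surfactant genes, had its highest mean at term in all 4 courses. At day 65 it was at 63.3 and 76.0 CPM in WT proximal, 61.7 and 84.4 in WT distal, 81.3 and 73.5 in CF proximal, and 96.7 and 87.3 in CF distal lung. At term the same tissues held 161 and 171, 206 and 167, 152 and 179, and 209 and 197 CPM. The 8 term libraries lay above all 8 day 65 libraries. The log2 fold change was 1.24 ± 0.24 in WT proximal (adjusted p = 0.0029), 1.32 ± 0.27 in WT distal (adjusted p = 0.0044), 1.11 ± 0.31 in CF proximal (adjusted p = 0.055) and 1.17 ± 0.19 in CF distal lung (adjusted p = 0.0023), so none passed at 0.001 with edgeR. DESeq2 called 3 of the 4, the exception being CF proximal lung.

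FOXA1 and FOXA2, which open closed chromatin at endoderm genes, had their lowest mean at day 120 in all 4 courses. Over the 8 libraries of a day FOXA1 had a median of 55.9 CPM at day 65, 68.4 at day 80, 57.6 at day 100, 34.0 at day 120 and 63.3 at term. FOXA2 had medians of 36.6, 37.4, 35.3, 21.6 and 36.5 CPM. The 2 CF term replicates stood apart, with FOXA1 at 29.4 and 69.6 CPM in proximal and 37.6 and 72.9 in distal lung. FOXA2 was at 25.2 and 53.2 CPM and at 33.2 and 62.6 CPM there. The 4 CF day 120 libraries ran from 27.3 to 36.3 CPM for FOXA1 and from 15.4 to 32.8 CPM for FOXA2. A rise from day 120 to term is therefore not settled in CF lung. The dip at day 120 did not pass in any of the 4 courses, the value nearest to passing being FOXA2 in CF distal lung (day 120 against day 65, log2 fold change -1.36 ± 0.29, adjusted p = 0.018). GATA6, a zinc finger factor of endoderm and heart, stayed between 53.9 and 106 CPM in all 40 libraries. From day 65 to term the 12 changes of FOXA1, FOXA2 and GATA6 ran from -0.28 to 0.32 on the log2 scale, with adjusted p of 0.24 or more. Their 95% confidence intervals together spanned -1.12 to 1.34, and reached a median of 0.57 on either side of the value, so smaller changes were not detectable.

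FOXP2, a repressor that works with FOXP1 in distal epithelium, fell in WT lung and in CF distal lung. It was at 112 and 106 CPM in WT proximal lung at day 65, 161 and 136 at day 80, 91.9 and 87.9 at day 100, 29.0 and 37.1 at day 120, and 16.3 and 17.1 at term. WT distal lung held 101 and 109, 153 and 134, 138 and 135, 26.2 and 36.6, and 16.4 and 14.0 CPM. CF lung went from 118 to 174 CPM over its 4 libraries at day 65 to 25.9 to 41.5 at day 120 and 19.6 to 33.7 at term. Libraries through day 100 and from day 120 on did not overlap. From day 65 to term FOXP2 fell by 2.72 ± 0.14 (SE) in WT proximal, 2.82 ± 0.17 in WT distal and 2.48 ± 0.24 in CF distal lung (log2, adjusted p = 2.7e-06, 1.3e-05 and 0.00014). In CF proximal lung the change was -2.20 ± 0.34 (adjusted p = 0.0071). The CF distal call alone was lost with 1 library left out (without CF distal day 65 replicate 2, adjusted p = 0.0012).

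**Figure D3:**
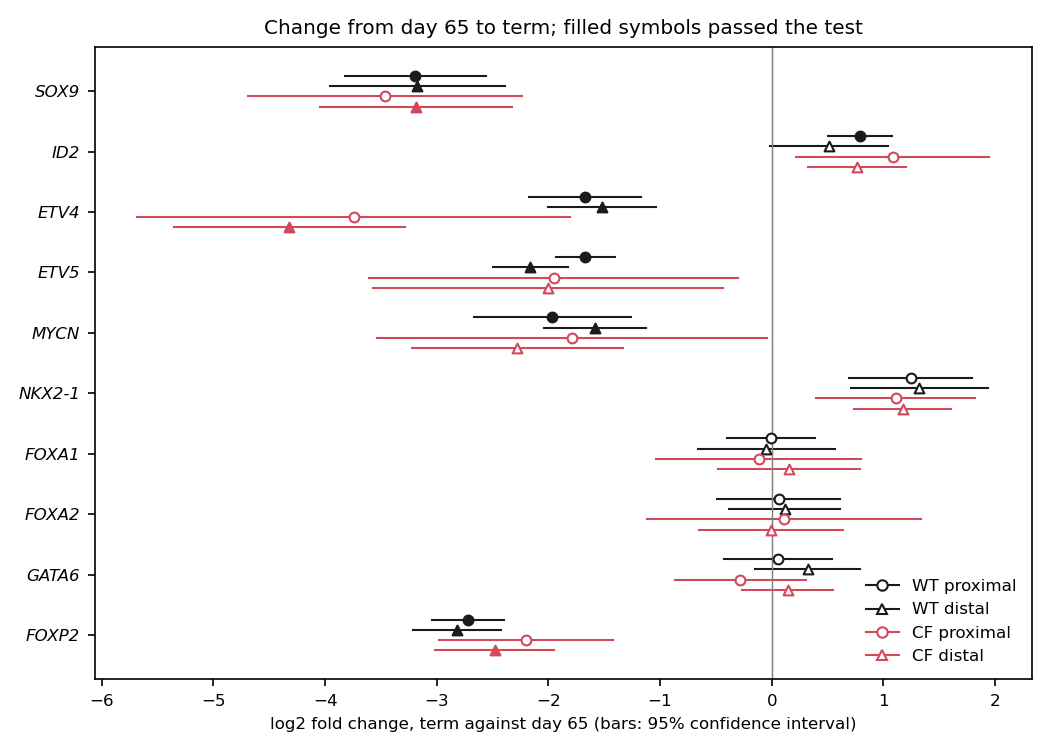
log2 fold change from day 65 to term (x axis) for each member (y axis) in the 4 courses, with 95% confidence intervals. Filled symbols passed at an adjusted p of 0.001. SOX9, ETV4, ETV5, MYCN and FOXP2 lie below 0 and NKX2-1 above 0. FOXA1, FOXA2 and GATA6 lie between -0.28 and 0.32, with intervals that include 0. The intervals are wider in CF than in WT proximal lung.

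By day 120, 4 of 10 members had already fallen against day 65 in WT lung, SOX9, ETV4, ETV5 and FOXP2 in both regions, beside 1.35% of genes in proximal and 0.58% in distal lung. FOXP2 was the 1 member that passed in CF distal lung (log2 fold change -2.33, adjusted p = 0.00097), beside 0.0871%. No member did in CF proximal lung, beside 0% of genes, with 4 members and 15.3% of genes at an unadjusted p under 0.05 and 2 called by DESeq2 (3.47% of genes). Of the 8 WT calls at day 120 those of ETV5 were lost in 0 (proximal) and 1 (distal) of 10 fits without 1 library. The others were lost in 2 and 8 fits for SOX9, 8 and 7 for ETV4 and 1 and 8 for FOXP2, in proximal and distal lung, with adjusted p of at most 0.012 (ETV4 without WT distal day 120 replicate 2). With the WT day 100 libraries counted as 1, both ETV4 calls (adjusted p = 0.0018 in proximal and 0.0032 in distal lung) and the distal calls of SOX9 (0.0021) and FOXP2 (0.0022) ended. The FOXP2 call in CF distal lung did not hold in any of the 10 fits without 1 library (adjusted p up to 0.0098, without CF distal day 65 replicate 2). Between consecutive time points 3 changes passed, the ETV5 and MYCN changes given above. Between days 65 and 80 the 40 changes ran from -0.48 to 0.92 and none passed with edgeR, beside 0% of genes, with 3 at an unadjusted p under 0.05 (7.07% of gene tests) and 0 called by DESeq2 (0.141%).

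Levels were compared between members per kilobase of exon. At day 65 in WT lung the order of medians was ID2 (86.6 CPM per kb), ETV5 (76.3), NKX2-1 (29.6), SOX9 (24.9), GATA6 (16.0), FOXA2 (13.3), MYCN (8.70), ETV4 (8.12), FOXA1 (7.72) and FOXP2 (6.60). At term it was ID2 (145), NKX2-1 (71.9), ETV5 (19.1), GATA6 (17.4), FOXA2 (15.5), FOXA1 (8.15), SOX9 (3.01), ETV4 (2.78), MYCN (2.72) and FOXP2 (1.00). At day 65 ID2 and ETV5, NKX2-1 and SOX9, GATA6 and FOXA2, and the run from MYCN to FOXA1 overlapped over their 4 libraries, as did ETV4 and FOXP2. At term ETV5, GATA6 and FOXA2 overlapped, as did SOX9, ETV4 and MYCN. ID2 was first in 18 of 20 conditions and ETV5 in the other 2. The ratio of ETV5 to ETV4 per kb was 7.98 to 11.1 in WT and 3.08 to 4.49 in CF at day 65, 5.18 to 7.11 against 1.35 to 2.11 at day 120, and 5.17 to 9.57 against 7.20 to 22 at term. WT and CF libraries did not overlap in this ratio on any day before term.

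The level of several members was also set against the summed CPM of an epithelium list. Genes of that list moved in both directions from day 65 to term in WT distal lung. The log2 fold change was -2.38 for CDH3, 1.99 for KRT7 and 1.91 for ST14. The sum is therefore not a measure of the epithelial share alone. The 14 measured genes of the epithelium list, such as EPCAM and the keratins, summed to 1158 to 1502 CPM in CF and 1472 to 1667 CPM in WT at day 65 and 1830 to 3856 CPM at term. Relative to that sum, NKX2-1 differed between day 65 and term by 0.03 to 0.17 on the log2 scale over the 4 courses. FOXA1, FOXA2 and GATA6 were lower by this measure, from -0.82 to -1.37, and SOX9 from -4.30 to -4.58. ID2, which was higher at term in CPM, was at -0.36 in WT proximal, -0.64 in WT distal, 0.00 in CF proximal and -0.34 in CF distal lung relative to the sum, so its direction depends on the scale. The epithelium and the members were measured in the same libraries, and the part of cell composition in the changes was not tested.

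Some genes of the signals around the tips changed over the same interval. In WT distal lung 6.43% of all genes were called higher and 5.25% lower. The genes named from each list were picked among those with the same direction in CF distal lung, so that shared direction was fixed by the choice. Of 19 measured genes of branching signals and their feedback, 5 fell and 1 rose from day 65 to term in WT distal lung, with a list median of -0.64 against -0.00 over all genes. WNT7B (log2 fold change -3.10), an epithelial Wnt ligand, and WNT2 (-2.62), its mesenchymal counterpart, fell in WT distal and in CF distal lung (-3.15 and -3.39). FGF7, a ligand of FGFR2, rose in both (2.50 and 3.94). FGF10 fell in WT distal lung (-2.01, adjusted p = 7.9e-05) and was at 0.73 in CF distal lung (adjusted p = 0.22), and whether these differ was not tested. BMP4 and PTCH1 fell in WT distal lung (-1.24 and -1.74). The receptor FGFR2 was at -0.72 (adjusted p = 0.0056). The last 4 genes were chosen after their values were seen.

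Of 9 tested genes of the other tip and oncofetal list, 5 fell in WT distal lung, with HMGA2 at -4.57, IGF2BP1 at -3.86 and SOX11 at -3.14 (in CF distal lung -5.60, -4.00 and -3.38). HMGA2 and IGF2BP1 are fetal growth regulators. Of 20 other endoderm and lung epithelial factors, 1 rose, KLF5 (1.44 in WT distal and 1.92 in CF distal lung), and the list median was 0.27 in WT distal lung. The cell cycle list fell, 15 of 25 genes in WT distal and 22 of 25 in CF distal lung, with TOP2A at -2.65 and -5.19. Of the markers of differentiated cells, 8 of 10 alveolar type 2 genes rose in WT distal lung, among them the surfactant genes SFTPA1 (15.1) and SFTPD (9.26), and 7 of 11 alveolar type 1 genes, among them AQP5 (8.82). The alveolar type 2 list summed to 593 to 1076 CPM at day 65 and 9220 to 36019 CPM at term.

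For each member, the genes whose mean log2 CPM over the 20 conditions was most like its own were found among 14291 genes. These conditions share libraries, depth and developmental order, so the correlations are descriptions. SOX9 was most like PROM2 (Pearson r = 0.99), RIMKLA (0.97) and AIF1L (0.97). ETV5 was most like KIAA1024, IGF2BP3 and SERTM1 (0.96 to 0.97). ETV4 was most like ZNF239, TROAP and RECQL4 (each 0.98), of which TROAP encodes a mitotic spindle protein and RECQL4 a DNA helicase. FOXP2 was most like BCL11A, CDH3 and TGFB3 (0.96 to 0.97), and MYCN like 3 unnamed loci (0.96 to 0.98). NKX2-1 was most like TBC1D10A (0.93) and AGPAT2 (0.92), and ID2 like PPP6C, REEP5 and MBOAT1 (0.91 to 0.93). For FOXA1 (CHRM3, ADRA2A, ATP13A4), FOXA2 (LOC101122689, TPD52L1, DUSP9) and GATA6 (LOC101120007, IRX5) the likeness was lower, from 0.78 to 0.91. Among the members themselves, SOX9 was closest to FOXP2 (0.93) and ETV5 (0.93).

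CF and WT lung were compared on each day and over the mean of days 65 to 120. Averaged over these days, ETV4 was higher in CF distal lung by 1.05 on the log2 scale (95% confidence interval 0.67 to 1.43, adjusted p = 0.00048), the 1 member of 10 that passed, beside 5.21% of genes higher. The difference was 0.97 in proximal lung (0.33 to 1.62, adjusted p = 0.034), where 0 members passed beside 2.50% of genes, with 2 members and 33.7% of genes at an unadjusted p under 0.05 and 0 members called by DESeq2 (8.86% of genes). SOX9 was at 0.72 in distal (0.32 to 1.11, adjusted p = 0.0083) and 0.58 in proximal lung (0.14 to 1.02, adjusted p = 0.062). The other 8 members lay between -0.39 and 0.24, with adjusted p of 0.25 or more, and their intervals together spanned -0.96 to 0.66.

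The ETV4 call in distal lung was lost in 10 of 20 fits without 1 library, at worst without WT distal day 100 replicate 2 (adjusted p = 0.0023), and with the WT day 100 libraries counted as 1 (1.05, adjusted p = 0.0018). With counts thinned to equal depth it was 1.05 (adjusted p = 0.00022). In proximal lung the ETV4 difference was 0.96 without either CF proximal day 147 replicate. Term libraries are not in this mean and enter only through the estimate of spread, so these fits do not test the difference further. Other tissues differed between the genotypes over the same days. In distal lung 5 of 8 smooth muscle genes and 2 of 13 cartilage genes were higher in CF, and the cartilage list summed to 784 to 955 CPM in CF against 473 to 572 CPM in WT at day 65. The 25 cell cycle genes had a median difference of -0.02. Of 14 epithelium genes in distal lung, EPCAM was lower in CF (log2 fold change -0.67), ESRP2 (0.71) and ST14 (0.64) were higher, and the list median was -0.04. EPCAM was at 98.1 to 126 CPM in CF against 170 to 199 CPM in WT at day 65 and at 90.2 to 115 against 175 to 221 CPM at day 120, without overlap on any day before term. CDH1 overlapped between the genotypes on each of these days, as did the summed epithelium list. The part of these tissues in the ETV4 and SOX9 differences was not tested.

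**Figure D4:**
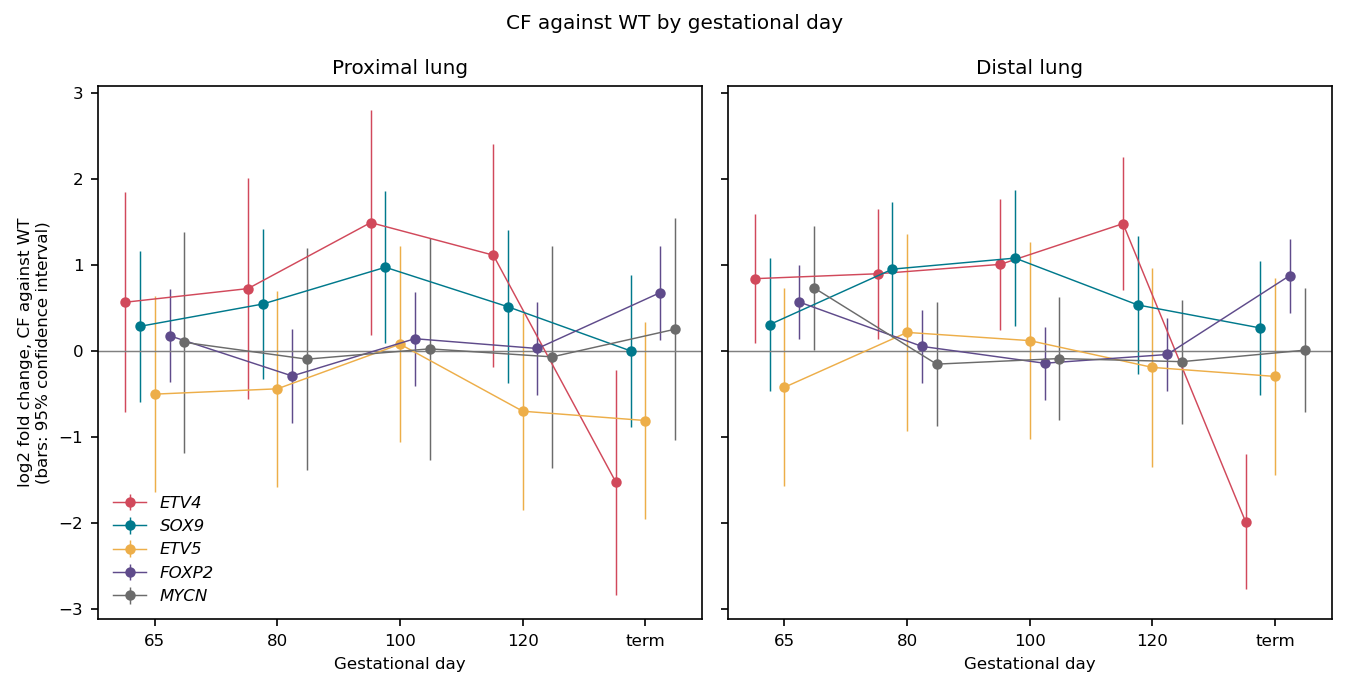
log2 fold change of CF against WT (y axis) by gestational day (x axis) in proximal (left) and distal lung (right) for 5 members, with 95% confidence intervals. ETV4 lies above 0 from day 65 to day 120 and below 0 at term in both regions, at -1.99 in distal lung. SOX9 lies above 0 on each day before term.

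By day, no member of 10 passed in any of the 10 comparisons of CF with WT, in which 0% of genes passed in proximal lung before term and 0.339% at term. In distal lung 0.0797%, 0.164%, 0.149%, 0.0896% and 1.25% of genes passed from day 65 to term. Of these 100 tests 16 had an unadjusted p under 0.05 and DESeq2 called 2, beside 18.9% and 2.7% of all gene tests in these comparisons, and 3 passed at an adjusted p of 0.05. The 3 were ETV4 in distal lung at day 120 (1.48, 0.70 to 2.25, adjusted p = 0.032, beside 4.22% of genes), ETV4 in distal lung at term (-1.99, -2.77 to -1.20, adjusted p = 0.0031) and FOXP2 in distal lung at term (0.87, 0.44 to 1.30, adjusted p = 0.011), these 2 beside 14.4% of genes. At term FOXP2 was at 23.3 and 31.4 CPM in CF against 16.4 and 14.0 CPM in WT distal lung, without overlap. The SOX9 difference in proximal lung at day 120 went from 0.51 to -0.13 without CF proximal day 120 replicate 2, the library with COL2A1 RNA. The 2 CF proximal day 120 libraries also stood apart in other genes, with summed airway epithelium genes at 180 and 4091 CPM and alveolar type 2 genes at 8880 and 21626 CPM, and their part in the SOX9 value was not tested. The WT term animals were born naturally and the route of birth of the CF term animals was not given in the sources used here, so a part of birth in the differences at term cannot be told apart from genotype.

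The change of ETV4 from day 120 to term differed between CF and WT by -3.46 (95% confidence interval -4.57 to -2.36) in distal lung, at an adjusted p of 0.0019, and by -2.64 (-4.48 to -0.80, adjusted p = 0.15) in proximal lung. None of 10 members passed at 0.001 in either region, beside 0.189% and 0.0442% of genes, with 3 and 1 at an unadjusted p under 0.05, beside 25.9% and 15.7% of genes. DESeq2 called 1 of them, ETV4 in distal lung, beside 4.37% of genes there and 1.78% in proximal lung. In fits without 1 library the ETV4 difference ran from -4.37 (adjusted p = 5.8e-05, without CF distal day 147 replicate 1) to -2.95 in distal and from -4.97 (adjusted p = 0.00015, without CF proximal day 147 replicate 1) to -1.80 in proximal lung, with adjusted p up to 0.014 and 0.45. Where a term library was left out, the 1 that remained was assumed to vary like the other groups. Cell cycle genes also differed at term, where 12 of 25 were lower in CF distal lung, beside 0.682% of all genes, with a list median of -1.98. The cell cycle list summed to 327 to 408 CPM in the CF and 680 to 1040 CPM in the WT term libraries. The part of dividing cells in the ETV4 difference was not tested.

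Proximal and distal lung of the same genotype did not differ past the limits in any member. No member passed in any of the 10 comparisons by day or the 2 over the mean of days, in which 0% of genes passed by day and 0.00534% (WT) and 0% (CF) over the mean, with 5 of 100 and 1 of 20 tests at an unadjusted p under 0.05 (2.32% and 3.16% of gene tests) and 0 by DESeq2 (0.0185% and 0.0232%). Averaged over days the difference ran from -0.21 for SOX9 in CF to 0.16 for ETV5 in WT lung (proximal against distal, log2), and the 20 intervals reached a median of 0.26 on either side of their value. SOX9 was lower in proximal lung in 6 of 10 WT and 8 of 10 CF pairs of libraries, ETV4 in 6 and 8, and MYCN in 7 and 7. ETV5 and ID2 were higher in proximal lung in 7 of 10 WT pairs each and lower in 6 of 10 CF pairs each. FOXA2 was lower in proximal lung in 8 and 6 pairs, FOXP2 in 4 and 8, and FOXA1 and GATA6 in 6 and 5 each. NKX2-1 was evenly split, 5 and 5 of 10.

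**Figure D5:**
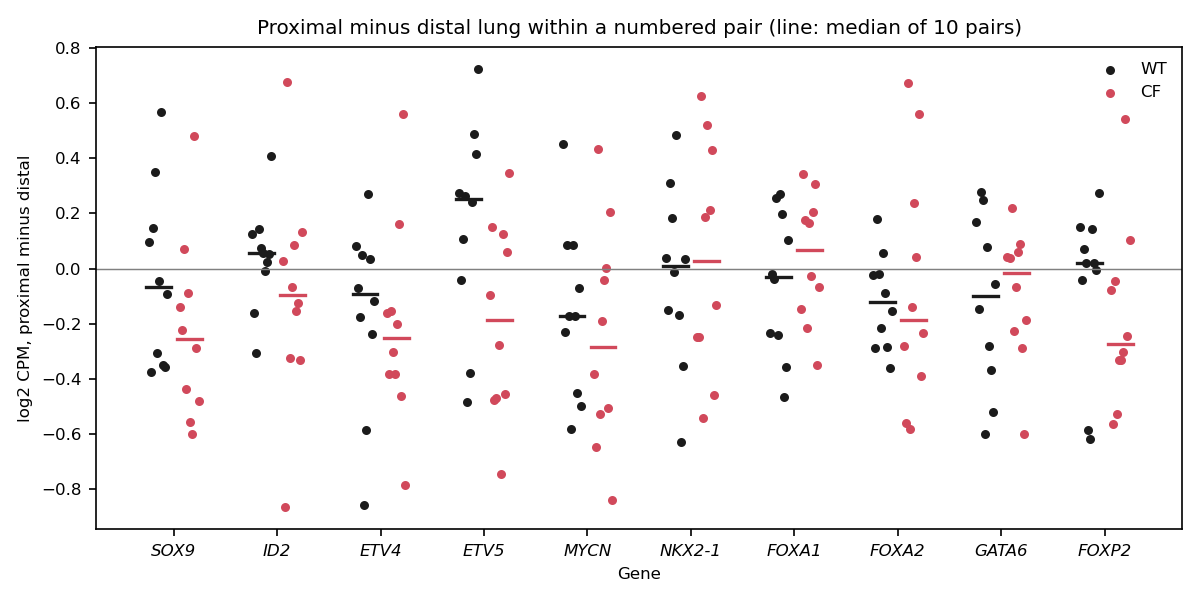
Difference in log2 CPM between proximal and distal lung (y axis) for each member (x axis), with 1 point per numbered pair of libraries, 10 in WT (black) and 10 in CF (red), and a line at the median. Points of every member lie on both sides of 0, between -0.87 and 0.72.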

How the data were processed

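The authors made libraries with oligo dT priming, sequenced paired ends of 100 bases, aligned reads to Oar_v4.0 with STAR (2.6 in the submitters' processing notes, a later release in the paper's methods) and counted them per gene with featureCounts 1.6.3. The deposited values are these raw counts, 1 column a library. Strand setting and annotation release were not given in the sources used here. Among counts of 1 to 20, 69.2% to 85.8% were even, so mates may have been counted singly.

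The tests used edgeR 4.0.16 under R 4.3.3. Genes passed filterByExpr (count minimum 10, total minimum 15), leaving 18186 to 20344 per fit, and were scaled by TMM. Fits (glmQLFit, glmQLFTest) had 1 mean per condition over 10 libraries for a time course and 20 for genotype or region. CPM used TMM factors over all 40 libraries (0.751 to 1.19), with a prior count of 0.5 for log2 CPM. Intervals are at 95%. The code was tested on simulated counts. DESeq2 1.42.0 was an alternative. A further table repeating the CF counts was not used. The limits on adjusted p and fold change follow the study's methods. The members and gene lists were chosen with earlier results of these data known. Named genes were the members, the 3 genes most like each, defining markers, and up to 3 genes a list with the largest WT distal change from day 65 to term and the same direction in CF. A few genes that this rule names are not reported here.

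Proximal and distal libraries with the same number come from the same animals, by their labels. In 3 of 5 days in each genotype their deviations correlated above 0.1 (-0.05 to 0.49 in WT and -0.09 to 0.63 in CF).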

Additional observations from a re-analysis of the deposited data

How the results depend on the processing

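Of 27 member changes that passed, none turned direction under any alternative. RLE scaling, no filter, DESeq2, the replicate block, thinned counts and the WT day 100 libraries summed kept 112 of 132 values past the limits, and leaving out 1 library kept 161 of 280. The highest adjusted p was 0.0205, and 6 changes passed in every fit without 1 library. Of 65 changes that did not pass, 67 of 1367 alternative values changed sign, all of them in changes under 0.58 on the log2 scale. With 2 libraries a condition, small changes cannot be seen.

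The counts below are of tests that passed, 1 member in 1 comparison, so a member can count more than once. Between consecutive time points 3 passed, and 25 at an adjusted p of 0.05, 8 without the filter and 22 with DESeq2. The count was 0 with the replicate block and 0 with the WT day 100 libraries summed, where fewer samples remained. At 0.05 these comparisons called from 0 to 4477 genes each, and DESeq2 called from 10 to 2500. Across time and genotype the replicates share only a number (correlations of deviations from -0.42 to 0.62). For day 120 against day 65 there were 9, and 15 at 0.05, 14 with DESeq2, 5 with those libraries summed and 7 with the block. For term against day 65 there were 14, and 22 at 0.05, and 11 with the block. In the same order of courses 6951, 6858, 2286 and 5975 genes passed at 0.05, and 2116, 1867, 2 and 923 with the block. Over all time points there were 11, and 23 at 0.05 and 21 with DESeq2. In that order of courses 1928, 1368, 5 and 700 genes passed. At 0.05 it was 6897, 7089, 1056 and 6619 genes, and with DESeq2 5921, 6022, 2090 and 5782. For CF against WT by day there were 0, and 3 at 0.05 and 2 with DESeq2. These comparisons called from 18 to 2892 genes each at 0.05. Over the mean of days 65 to 120 there was 1, and 3 at 0.05 and 0 with the WT day 100 libraries summed. There 2866 of 20344 genes passed at 0.05 in proximal and 3609 of 20084 in distal lung. For the difference in the change to term there were 0, and 1 each at 0.05, without the filter and with DESeq2. Of all genes 362 passed at 0.05 in proximal and 1869 in distal lung. Without 1 library these 7 counts of member tests ran from 1 to 6, 5 to 10, 11 to 16, 8 to 13, 0 to 2, 0 to 2 and 0 to 2. Proximal against distal stayed at 0 in each setting, the block by animal included. With the replicate block ID2 (WT proximal), ETV4 (WT distal) and MYCN (WT proximal) went to adjusted p of 0.0022, 0.0012 and 0.0016 from day 65 to term. It ended both ETV4 calls in WT lung at day 120 (adjusted p = 0.0020 and 0.0016) and that of MYCN in WT distal lung from day 120 to term (0.0013). Other causes of these shifts were not tested.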

Other observations

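MKI67, a marker of dividing cells, ran from 9.09 to 107 CPM in the 4 CF day 120 libraries, whereas the summed cell cycle list was at 842 to 939 CPM there. In the 4 WT day 120 libraries MKI67 was at 44.4 to 62.7 CPM.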
